A study of Homo sapiens with 24 samples.

Results

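The 43 genes described here encode proteins of DNA replication and the cell cycle. They were chosen by name, and each gene was represented by the accessible regions (peaks) whose midpoint lay within 20 kb of the interval that RefSeq gives it on hg38. The rule took 335 of the 189403 peaks measured, for 43 of 20037 protein-coding genes. No peak was assigned to more than 1 of the 43 genes, and for 205 of the 335 peaks the assigned gene was also the nearest protein-coding gene. The number of peaks ran from 2 for ORC6, MCM3, MCM6, CCNA2 and BUB1 to 19 for GINS2. A filter on low counts passed 286 of the 335 peaks to the tests, with at least 1 for every gene, and left 49 untested.

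Open chromatin was mapped by ATAC-seq, which lets the Tn5 transposase cut accessible DNA and tag it with sequencing adapters. All 24 libraries, in 6 groups of 4, came from T47D, a luminal breast cancer cell line in wide use that carries the estrogen receptor and grows in response to estrogen. Cells in complete medium, with whole fetal bovine serum, were kept for 1 day and then treated for 1 hour with 0.1% DMSO as the vehicle or with 100 nM fulvestrant, raloxifene or tamoxifen. Hormone-starved cells spent 3 days in medium without phenol red whose serum had been stripped with charcoal, which removes steroid hormones, and then received 0.1% DMSO or 1 nM beta estradiol for 1 hour. Fulvestrant is an estrogen receptor antagonist that leads to loss of the receptor, while raloxifene and tamoxifen are selective modulators that occupy it. Whether replicates are separate cultures is not in the labels, and p-values therefore speak only of the spread among libraries.

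Before a cell divides, the origin recognition complex (ORC), CDT1 and the MCM helicase are loaded at replication origins, which licenses them. CDC45 and GINS then activate the helicase, and polymerases with their clamp and clamp loader copy the strands. E2F transcription factors drive many genes of the G1/S step, and many G2 and mitotic genes carry CCAAT boxes and the cell cycle homology region (CHR), which repressor and activator complexes share. Estrogen pushes luminal breast cancer cells from G1 into S phase, so these genes are commonly followed as a readout of its growth effect, although accessibility at a promoter and its transcription can change separately.

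Counts in peaks ran from 434598 in fulvestrant replicate 4, the shallowest library, through 2422981 in starved vehicle replicate 3, the next, to 12140005. In fulvestrant replicate 4, CPM, the count after scaling for depth, at the highest peak of each gene were below those of the other 3 fulvestrant libraries for 41 of the 43 genes, with a median ratio of 0.392 to their mean. Complete vehicle replicates 3 and 4 carry fulvestrant in 1 label field and DMSO in their titles, by which they were grouped. The 2 media also differ in seeding density and days of culture, so medium, time and density cannot be told apart. Peaks over the promoters of the luminal markers ESR1, GATA3, FOXA1 and KRT8 had median levels of 27.3 to 104 CPM, and no peak lay over the promoter windows of PTPRC and KRT5, the markers of leukocytes and basal epithelium for which a window was at hand.

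The highest peak of most genes lay over a promoter. Of the 43 highest peaks, chosen by mean CPM over all libraries, 25 overlapped the gene's own promoter window in RefSeq (250 bases before to 50 after a start), 9 overlapped only the window of another gene and 9 overlapped none. The second kind included the RAB5B promoter near CDK2, the NACA promoter near PRIM1, the EMC3 promoter near FANCD2 and the APRT promoter near CDT1. Their height per kilobase of peak ran from 44.98 CPM per kb at GINS3, a GINS subunit, to 404.4 at the peak assigned to CDK2, the kinase partner of the E and A cyclins, with a median of 154. By role, the median was 247.6 CPM per kb for helicase activation, 174.8 for the DNA damage response, 168.8 for G2 and mitosis, 157.7 for fork synthesis, 157.1 for G1/S control, 139.2 for origin licensing and 109.2 for nucleotide supply. The ranges of all 7 roles overlapped.

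**Figure D1:**
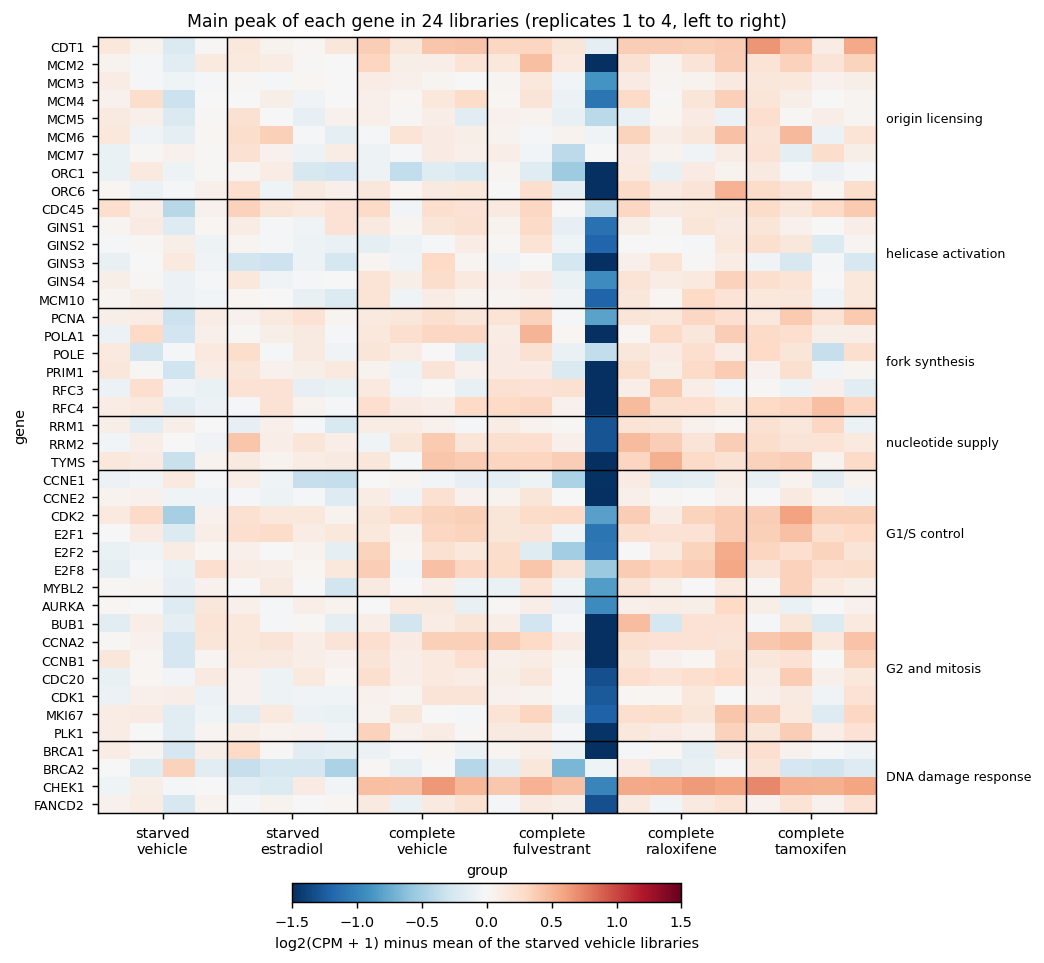
Level of the highest peak of each of the 43 genes (rows, by role) in the 24 libraries (columns, 4 per group), as log2(CPM + 1) minus the mean of the starved vehicle libraries; colours stop at 1.5 in either direction. Nearly all cells are pale, fulvestrant replicate 4 is the dark column, with 41 of 43 peaks below the other 3 fulvestrant libraries, and CHEK1 is the row that separates the vehicle libraries of the media most clearly.

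Promoter sequences are shown for 4 genes whose highest peak lies over the gene's own promoter, 1 from each of 4 roles, because they carry the letters by which these genes are usually recognised. Each line gives the 250 bases before the RefSeq start (GRCh38.p14), with matches to the searched motifs in capitals on either strand. MCM3, a subunit of the MCM helicase, lies at chr6:52284743-52284992 on the minus strand. GINS2, a subunit of GINS, lies at chr16:85688955-85689204 on the minus strand. E2F1, the transcription factor, lies at chr20:33686386-33686635 on the minus strand, and CDK1, the kinase of mitotic entry, at chr10:60778081-60778330 on the plus strand.
MCM3: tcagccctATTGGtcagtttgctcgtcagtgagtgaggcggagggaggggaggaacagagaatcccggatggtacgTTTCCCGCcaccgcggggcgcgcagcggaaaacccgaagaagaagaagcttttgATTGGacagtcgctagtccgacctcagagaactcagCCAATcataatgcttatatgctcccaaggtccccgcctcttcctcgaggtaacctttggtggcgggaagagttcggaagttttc
GINS2: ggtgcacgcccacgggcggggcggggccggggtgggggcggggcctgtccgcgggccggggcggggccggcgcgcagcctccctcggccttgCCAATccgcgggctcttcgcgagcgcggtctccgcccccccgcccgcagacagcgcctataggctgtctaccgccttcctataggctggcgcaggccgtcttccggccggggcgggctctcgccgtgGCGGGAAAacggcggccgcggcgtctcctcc
E2F1: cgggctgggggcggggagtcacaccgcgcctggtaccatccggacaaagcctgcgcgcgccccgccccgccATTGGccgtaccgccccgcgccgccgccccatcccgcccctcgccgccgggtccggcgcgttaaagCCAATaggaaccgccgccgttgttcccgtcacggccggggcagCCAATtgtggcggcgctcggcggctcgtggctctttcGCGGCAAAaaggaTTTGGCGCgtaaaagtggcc
CDK1: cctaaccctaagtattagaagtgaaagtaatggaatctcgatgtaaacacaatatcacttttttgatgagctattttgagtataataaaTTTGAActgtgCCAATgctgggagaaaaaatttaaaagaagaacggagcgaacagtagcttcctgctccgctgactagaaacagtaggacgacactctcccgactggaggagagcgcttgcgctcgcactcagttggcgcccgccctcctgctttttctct
In these lines MCM3 holds 1 E2F match and 3 CCAAT matches, GINS2 holds 1 of each, E2F1 holds 2 E2F and 3 CCAAT matches, and CDK1 holds 1 CHR and 1 CCAAT match. The same stretch was read but is not shown for PRIM1, RRM1 and FANCD2, and held no E2F match in any of them. PRIM1 holds 1 CCAAT match, RRM1 holds 1 CHR and 1 CCAAT match, and FANCD2 holds no match to any motif.

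Motifs were searched on both strands, and none contains another. The E2F motif was any of TTTGGCGC, TTTCCCGC, TTTCGCGC and TTTGCCGC. The CHR was searched as TTTGAA, the sequence most often described for it, or as its variant form TTCGAA. The CCAAT box was searched by those letters. A single arm of the estrogen response element (ERE) was searched as AGGTCA. The window was 300 bases, from 250 before to 50 after the outermost start of each gene. Of the 43 genes 36 had such a window, and GINS4, MCM4, MCM5, CCNE2, E2F8, CDK2 and AURKA had none. E2F letters stood in 17 of the 36 windows (47.2%), against 4.44% of the windows of 15843 protein-coding genes. CCAAT stood in 23 (63.9%) against 36.4%, CHR in 7 (19.4%) against 13.6%, and the ERE arm in 2 (5.56%), those of BRCA1 and BUB1, against 11.8%. The outermost BRCA1 start, whose window was searched, lies 44.82 kb from the highest BRCA1 peak, which overlaps another BRCA1 window. By role, E2F letters stood in 5 of 7 licensing windows and 1 of 7 G2 and mitosis windows, while CHR stood in 1 of 7 and 5 of 7 of them. All 7 G2 and mitosis windows held CCAAT. These matches describe letters and no bound site.

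Complete medium was compared with hormone-starved medium in the 2 vehicle groups, which asks where chromatin near these genes differs between the 2 culture conditions as a whole. Called regions near licensing, helicase and nucleotide genes were higher in complete medium in all but 1 case. Called regions inside FANCD2 and BRCA2, which act in the repair of crosslinks and double-strand breaks, were lower. Calls near CHEK1, of the same DNA damage role, went both ways, and fork synthesis had 5 rises and 4 falls. G1/S control had 5 rises and 1 fall, and G2 and mitosis 4 and 3. Rises also outnumbered falls near 16 housekeeping genes, at 15 and 5, and differences between roles or lists were not tested. Of the 286 tested peaks 39 were higher in complete medium (13.6%) and 16 were lower (5.59%), by edgeR's quasi-likelihood test at an adjusted p of 0.05 (Benjamini-Hochberg over the 156745 peaks tested in all). The background over all tested peaks was 7.93% higher and 9.91% lower. The median log2 fold change over the 286 peaks was 0.129, beside 0.0206 over all tested peaks. Of the called differences, 26 rises and 11 falls were at least 2-fold, where such rises made up 4.7% and such falls 6.09% of all tested peaks. The vehicle libraries of the 2 media did not overlap for 42 of the 55 called peaks, and for 67.3% of all called peaks. Within replicates 1 and 2 alone the rises numbered 25 and the falls 12, with backgrounds of 5.62% and 7.19%. Within replicates 3 and 4 alone they numbered 14 and 6, with backgrounds of 2.67% and 3.9%. Without the 2 vehicle libraries whose labels conflict, the rises numbered 23 and the falls 12, with backgrounds of 5.0% and 5.44%. In bulk chromatin, a change in the share of cells with an open site and a change in how open it is in each cell cannot be told apart.

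The called peaks lay near 26 of the 43 genes: 20 genes had a rise, 12 had a fall, and CHEK1, GINS2, CCNE1, MKI67, POLA1 and PRIM1 had both. Of the 19166 protein-coding genes with a tested peak within 20 kb, 58.0% had a called peak, 37.5% a rise, 34.7% a fall and 14.2% both. The 17 genes without a called peak were ORC1, ORC6, MCM3, MCM6, MCM10, CDC45, GINS1, RFC3, RRM1, E2F1, E2F8, CCNE2, MYBL2, CCNA2, CDK1, CDC20 and BUB1. By role, origin licensing had 11 rises and no fall among 52 tested peaks, helicase activation 8 and 1 of 45, fork synthesis 5 and 4 of 52, and nucleotide supply 4 and none of 18. G1/S control had 5 rises and 1 fall among 45, G2 and mitosis 4 and 3 of 40, and the DNA damage response 2 and 7 of 34. Differences between roles were not tested.

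**Figure D2:**
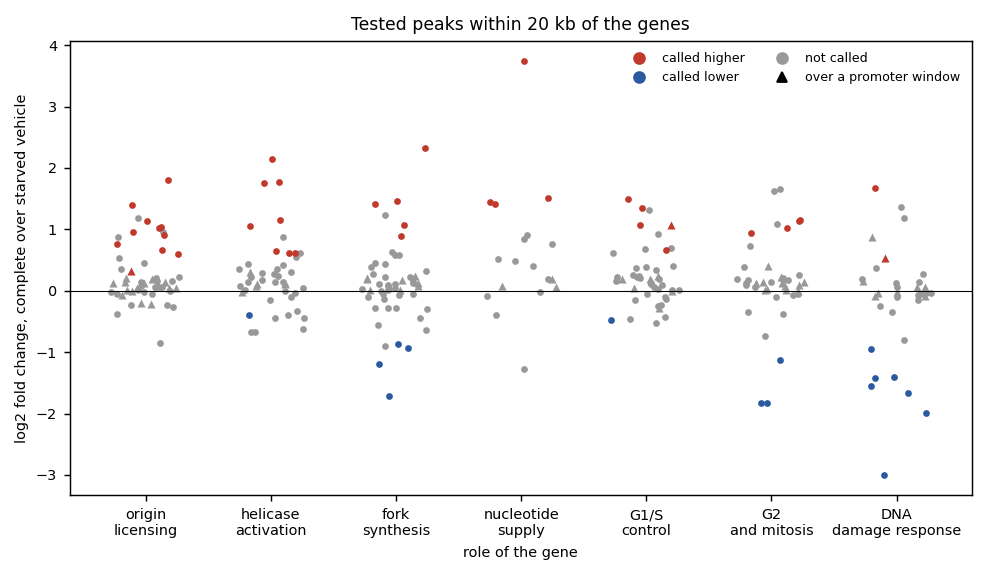
Log2 fold change of complete over starved vehicle (vertical axis) for each of the 286 tested peaks, by role of the gene (horizontal axis, points spread for legibility). Red points are the 39 rises and blue the 16 falls, triangles lie over a promoter window, and 7 of the 9 called peaks of the DNA damage response genes are falls.

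Among the licensing genes, MCM4, a helicase subunit, had 3 rises. At the one with the smallest p, chr8:47941947-47942175, 18.9 kb from the gene and nearer to PRKDC, the complete vehicle libraries stood at 14.6, 15.1, 18.5 and 14.7 CPM and the starved vehicle libraries at 7.95, 6.22, 12.4 and 7.74. All 4 complete libraries lay above all 4 starved ones, and the log2 fold change was 1.02 (SE 0.17, adjusted p = 2.029e-06). At the second, chr8:47949196-47949462, the mean was 2.50 ± 0.91 CPM (SD, n = 4) against 0.92 ± 0.76, the groups overlapped, and the log2 fold change of 1.81 (SE 0.43) lost its call without the conflicting libraries. CDT1, which loads the MCM helicase, had 4 rises. The peak 4.49 kb before it, chr16:88799184-88799405, held 4.22, 5.07, 4.01 and 5.40 CPM in complete medium and 2.77, 1.62, 1.60 and 2.00 in starved medium, without overlap (log2 fold change 1.14, SE 0.27, adjusted p = 0.001085). MCM5 had 2 rises, of which the peak inside it, chr22:35441784-35442044, stood at 9.18 ± 1.41 CPM against 4.21 ± 1.80 (log2 fold change 0.95, SE 0.21). MCM2 and MCM7, further helicase subunits, had 1 rise each.

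Among the genes of helicase activation, the rises lay near 3 GINS genes. The peak at chr8:41559396-41559692, 14.5 kb from GINS4, held 4.54, 2.99, 3.50 and 2.34 CPM in complete vehicle libraries and 1.27, 0.622, 0.0 and 0.637 in starved ones. The starved libraries were all lower, and 1 of them, the shallow replicate 3, had no count there (log2 fold change 2.15, SE 0.37, adjusted p = 7.552e-06). GINS2 had 5 rises and 1 fall. The highest of the 5 in level, at chr16:85659896-85660114 and nearer to GSE1, stood at 29.6 ± 2.8 CPM against 19.3 ± 1.1 (log2 fold change 0.64, SE 0.12), and another at chr16:85667982-85668241 at 5.84 ± 1.07 against 2.69 ± 0.54 (1.06, SE 0.25). GINS3 had 2 rises.

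Among the fork genes, RFC4, a subunit of the clamp loader, had 2 rises. The peak inside it, chr3:186790494-186790822, held 21.1, 21.4, 24.1 and 18.5 CPM in complete vehicle libraries and 13.4, 6.84, 6.82 and 11.2 in starved ones, again without overlap (log2 fold change 1.07, SE 0.15, adjusted p = 6.675e-08). The other, chr3:186772802-186773049, lies 17.0 kb away and nearer to EIF4A2, and stood at 7.81 ± 0.38 CPM against 3.67 ± 1.66 (0.89, SE 0.23). POLA1, the catalytic subunit of the polymerase that primes synthesis, had 1 rise and 2 falls. At the fall with the smallest p, chrX:24870212-24870416, 176.4 kb into the gene, complete libraries stood at 0.93 ± 0.30 CPM and starved ones at 3.11 ± 0.89 (log2 fold change -1.72, SE 0.39, adjusted p = 0.0005971). PCNA, the sliding clamp, had 1 fall, PRIM1, the primase, 1 rise and 1 fall, and POLE, the leading strand polymerase, 1 rise.

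Both nucleotide genes with calls, RRM2, the regulated subunit of ribonucleotide reductase, and TYMS, thymidylate synthase, had rises only, 3 and 1. The RRM2 peak with the largest fitted difference, chr2:10208870-10209070, rests on very few counts. It lies 86.4 kb from the start, inside the RefSeq interval of RRM2, and held 36 counts over the 4 complete libraries against 2 over the 4 starved ones, which is a ratio of 16.2 (95% exact binomial interval 4.17 to 139, counting error only). Complete libraries stood at 0.973, 0.910, 0.823 and 1.75 CPM, and starved ones at 0.0, 0.124, 0.0 and 0.091.

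Among the G1/S genes, E2F2, an activating E2F, had 3 rises. The peak 2.886 kb into the gene, chr1:23528230-23528463, held 14.1, 11.7, 13.8 and 13.7 CPM in complete vehicle libraries and 6.80, 3.98, 2.41 and 4.28 in starved ones (log2 fold change 1.49, SE 0.19, adjusted p = 2.265e-09). The 2 groups stood far apart, while the E2F2 promoter peak itself was at 16.5 and 14.3 CPM and was not called (0.23, SE 0.14). CCNE1, cyclin E1, had a rise and a fall. The rise, 5.69 kb before its start at chr19:29806175-29806422, stood at 5.52 ± 0.34 CPM against 2.08 ± 0.47 (1.35, SE 0.26, adjusted p = 4.295e-05). CDK2 had 1 rise.

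Calls near G2 and mitosis genes went both ways. PLK1, a mitotic kinase, had 3 rises, MKI67, which encodes the proliferation marker Ki-67, had 1 rise and 1 fall, and CCNB1, cyclin B1, and AURKA, a spindle kinase, had 1 fall each. None of these 7 peaks was among the 20 with the smallest p.

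The DNA damage genes held the falls with the smallest p. FANCD2, the protein that marks stalled forks in the Fanconi anemia pathway, had 4 falls, all inside the gene and 21.61 to 59.48 kb from its start. At chr3:10052387-10052593 the complete vehicle libraries held 0.649, 1.17, 1.03 and 1.31 CPM and the starved vehicle libraries 7.49, 10.1, 10.4 and 6.83. Every starved library was several times higher than every complete one, and the log2 fold change was -3.00 (SE 0.30, adjusted p = 6.324e-13). At chr3:10047912-10048184 complete libraries held 4.22, 4.42, 5.56 and 5.11 CPM and starved ones 15.6, 16.5, 6.82 and 16.6, with the shallow replicate 3 the lowest of the latter but still above all complete libraries (-1.66, SE 0.18, adjusted p = 7.554e-12). The remaining 2, at chr3:10085804-10086034 and chr3:10065617-10065885, had log2 fold changes of -0.94 (SE 0.20) and -1.55 (SE 0.37). In the libraries treated with estradiol, the first of these FANCD2 peaks stood at 6.76, 9.59, 4.93 and 3.60 CPM and the second at 14.9, 15.3, 15.9 and 17.1, while the antagonist libraries in complete medium, at 0.0 to 2.01 and 3.79 to 6.75 CPM, lay with the complete vehicle. BRCA2, which loads the recombinase at breaks, had 1 fall, at chr13:32384872-32385076 inside the gene, with 2.81, 3.38, 3.60 and 2.92 CPM in complete libraries against 10.4, 8.83, 6.82 and 7.28 in starved ones (-1.42, SE 0.23, adjusted p = 1.675e-06). BRCA1 had 1 fall as well.

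CHEK1, the kinase of the S-phase checkpoint, was the only one of the 36 genes with a RefSeq promoter window whose own window overlapped a called peak. At chr11:125626142-125626346 the complete vehicle libraries stood at 35.8, 35.5, 41.2 and 37.1 CPM and the starved vehicle libraries at 24.7, 27.6, 25.7 and 25.9. The groups did not overlap, and the log2 fold change was 0.53 (SE 0.11, 95% interval 0.31 to 0.75, adjusted p = 0.0002014). Libraries with estradiol stood at 24.7 ± 2.7 CPM, with raloxifene at 39.8 ± 0.9 and with tamoxifen at 39.9 ± 2.4. Fulvestrant libraries stood at 34.8, 37.8, 35.7 and 12.6 CPM, the last being the shallow replicate 4. A second CHEK1 rise, at chr11:125679352-125679749 and 53.33 kb from the start, stood at 2.49 ± 0.34 CPM against 0.82 ± 0.58 (1.68, SE 0.40). One further CHEK1 peak fell.

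**Figure D3:**
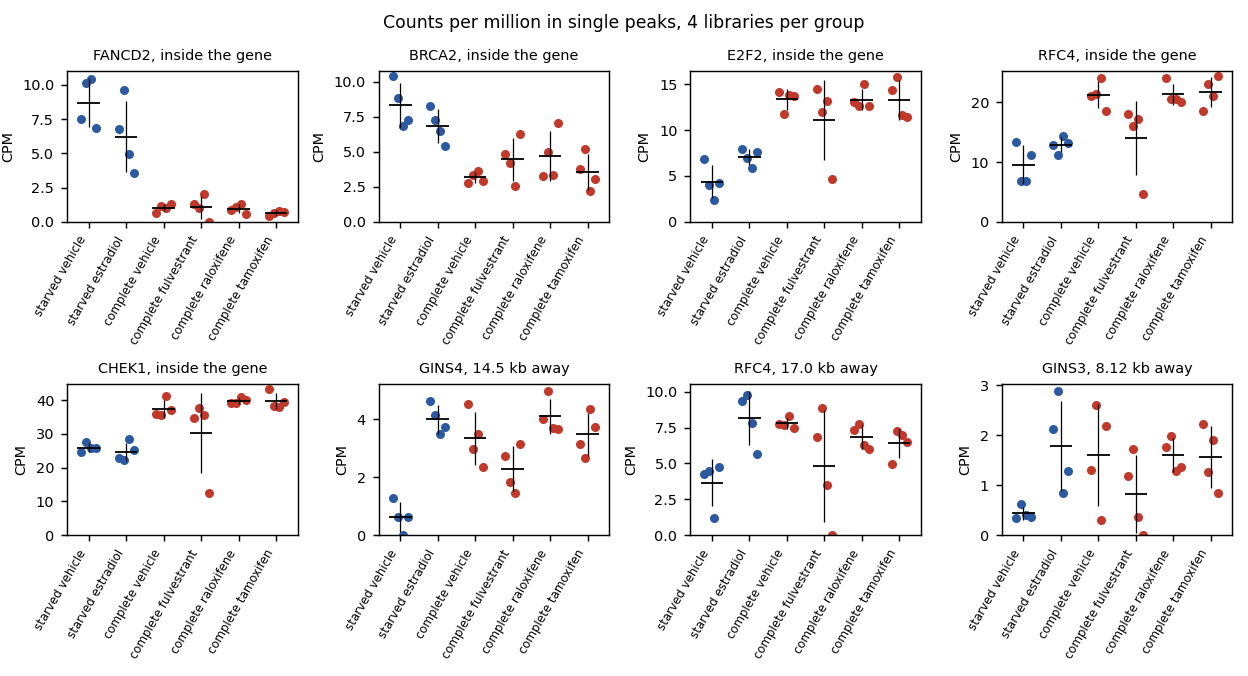
CPM (vertical axes) of 8 peaks in the 6 groups (horizontal axes), with 1 point per library, a bar at the mean and a line of 1 SD either way; blue is starved and red complete medium. The FANCD2 and BRCA2 peaks are higher in both starved groups, the E2F2, first RFC4 and CHEK1 peaks are higher in complete medium, and the GINS4, second RFC4 and GINS3 peaks are low in starved vehicle libraries but not with estradiol.

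Called differences were mostly away from promoters. Of 63 member peaks over any promoter window 3 were called (4.76%), where the background for such peaks was 5.42%. They were the CHEK1 promoter, the APRT promoter assigned to CDT1 (39.96 against 31.22 CPM, log2 fold change 0.32, SE 0.11) and a window of the transcript LOC101928163 inside E2F2. Of the 223 tested peaks off promoter windows 52 were called (23.3%), with a background of 18.9%. The promoter peaks were the deeper ones, at a median of 28 CPM and a median SE of 0.117, beside 3.38 CPM and 0.276 for the rest. Among the 43 highest peaks, log2 fold changes ran from -0.22 at ORC1 to 0.53 at CHEK1, with a median of 0.107 and a median SE of 0.11. The CHEK1 and CDT1 peaks were the 2 called, where 8.68% of the highest peaks of all protein-coding genes were called. The vehicle libraries of the media overlapped in 40 of the 43, and in 89.4% of those highest peaks.

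**Figure D4:**
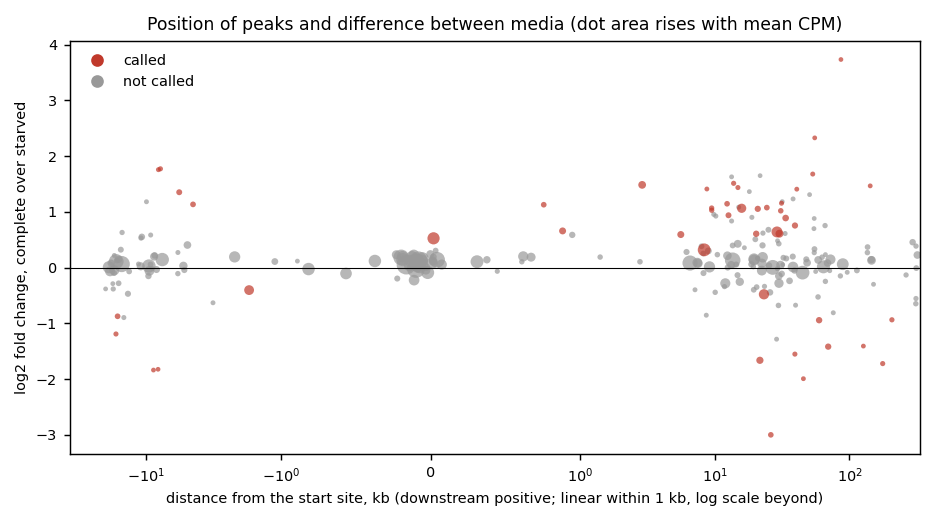
Log2 fold change of complete over starved vehicle (vertical axis) against the distance of the peak from the gene's RefSeq start in kb (horizontal axis, linear within 1 kb and logarithmic beyond), for tested peaks of genes with a known start. Large dots, which have high mean CPM, gather at 0 near the start, and red called peaks lie mostly more than 1 kb away.

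The difference between media was looked at again in libraries that the vehicle comparison did not use, the 12 antagonist-treated libraries in complete medium over the 4 estradiol-treated starved libraries. This comparison was added after the data were seen, and it also differs by drug and hormone. Of the 39 rises 24 were called higher there and 35 were above 0, with a median log2 fold change of 0.725 beside 1.08 in the vehicle libraries. Of the 16 falls 12 were called lower and all 16 were below 0, with medians of -1.02 and -1.41. Over all tested peaks, 10.2% were called higher and 13.9% lower there. How many of all peaks called between media were called again was not counted, so the recurrence has no like background here. All 4 FANCD2 falls were called again, at -2.72 and -1.61 for the first 2, and the CHEK1 promoter stood at 0.62 (SE 0.09). The GINS4 and second RFC4 peaks turned to -0.32 (SE 0.20) and -0.31 (SE 0.16) and were not called.

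Counts summed over all peaks of a gene gave smaller differences. Of the 43 genes 8 were higher in complete medium and 2 lower, with backgrounds over 19208 genes of 9.15% and 10.6%. E2F2 had the largest rise, at 61.0, 51.1, 57.2 and 58.4 summed CPM against 44.1, 38.5, 38.9 and 42.4 (log2 fold change 0.43, SE 0.07, adjusted p = 3.1e-05). MCM4 (0.30), RFC4 (0.28), RRM2 (0.28), PLK1 (0.25), CDT1 (0.24), GINS4 (0.19) and CHEK1 (0.18) were the other rises. BRCA2 fell by 0.39 on the log2 scale and FANCD2 by 0.20. Of these 10 genes 8 were called in the same direction in the other libraries, GINS4 and BRCA2 being the exceptions, at -0.0024 and -0.091. Over all genes, 11.9% were called higher and 14.2% lower in those libraries. How many of all genes called between media were called there again was not counted.

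Estradiol was compared with vehicle in starved cells, which asks what 1 hour of hormone does near these genes. Estradiol raised 3 of the 286 peaks and lowered none by edgeR, where the background was 0.813% higher and 0.0223% lower. At an unadjusted p under 0.05 there were 18 of 286 peaks (6.29%), beside 6.0% of all tested peaks. DESeq2 called 2 rises and no fall among the 286, and 1122 rises and 11 falls among all 156745 tested peaks. The GINS4 peak named above rose from 1.27, 0.622, 0.0 and 0.637 CPM to 4.63, 4.16, 3.49 and 3.73, without overlap (log2 fold change 2.36, SE 0.36, adjusted p = 1.984e-06). The distal RFC4 peak rose from 4.26, 4.48, 1.2 and 4.73 CPM to 9.38, 9.80, 7.82 and 5.66 (0.96, SE 0.22, adjusted p = 0.007128). A peak 8.12 kb before GINS3, at chr16:58384250-58384451, rose from 0.346, 0.622, 0.401 and 0.364 CPM to 2.13, 2.88, 0.850 and 1.29 (1.97, SE 0.53, adjusted p = 0.04566), on 13 and 64 counts. The treated libraries lay above all vehicle libraries at each of the 3 peaks. How many of all peaks called with estradiol lay apart in this way was not counted, so this has no background here. Without starved estradiol replicate 2 the GINS4 peak was the only one called, and the GINS3 call was lost under 11 of 17 alternative settings.

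These 3 peaks also rose in complete over starved vehicle medium, by 2.15, 0.89 and 1.76 on the log2 scale, but both comparisons use the same starved vehicle libraries. None of the 43 highest peaks was called with estradiol, and their log2 fold changes ran from -0.28 at BRCA2 to 0.21 at RRM2, with 95% intervals inside -0.57 to 0.44. At the FANCD2 peak that differed most between media, estradiol gave -0.40 (SE 0.20, adjusted p = 0.8137), and at the CHEK1 promoter -0.06 (SE 0.12). By summed counts, none of the 43 genes was called with estradiol, where 1.09% of all genes were higher and 0.0312% lower. The summed log2 fold changes ran from -0.28 at BRCA2 to 0.18 at E2F2.

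**Figure D5:**
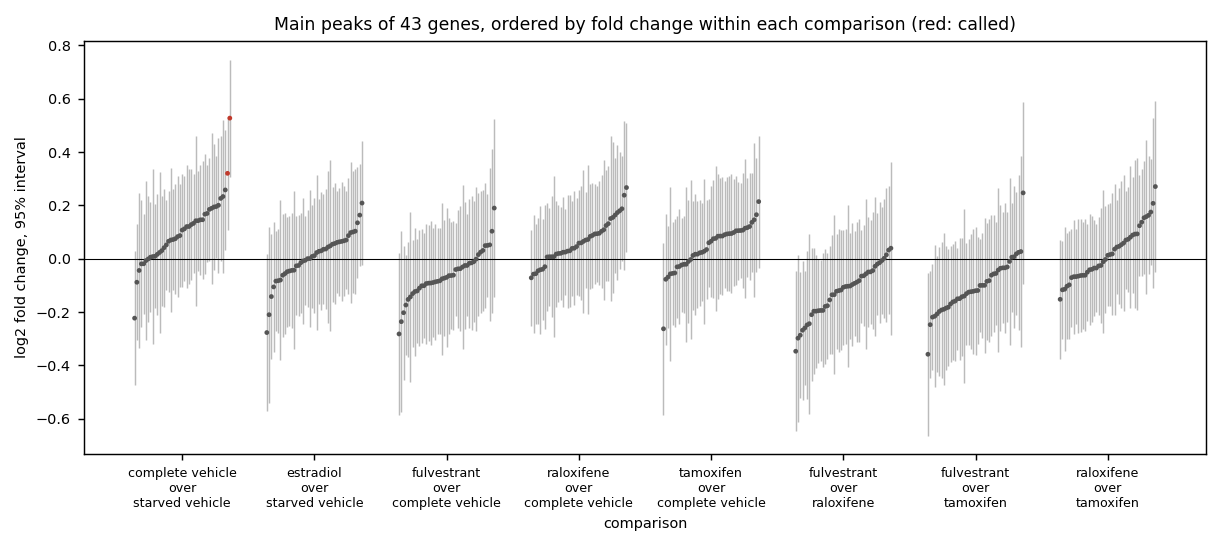
Log2 fold change with its 95% interval (vertical axis) of the highest peak of each of the 43 genes, ordered by size within each of the 8 comparisons (horizontal axis). Red points mark the 2 called peaks, both in complete over starved vehicle, and fulvestrant comparisons have medians below 0.

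The 3 antagonists were each compared with the vehicle in complete medium, at the same dose and time. None of the 286 peaks was called with fulvestrant, raloxifene or tamoxifen by edgeR or by DESeq2. The backgrounds by edgeR were 0.0%, 0.000638% and 0.0% in either direction, and DESeq2 called none of all tested peaks. At an unadjusted p under 0.05 there were 12, 6 and 11 peaks (4.2%, 2.1% and 3.85%), beside 3.96%, 3.81% and 4.13% of all tested peaks. The 43 highest peaks had medians of -0.07, 0.06 and 0.07 on the log2 scale, and all their 95% intervals lay between -0.59 and 0.52. Without the shallow replicate 4, whose values were low across these peaks, the fulvestrant median was -0.04.

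The 3 peaks with the smallest p in each comparison are given as values. With fulvestrant they were the distal CHEK1 peak that was higher in complete medium, at 1.10, 0.863, 1.28 and 1.57 CPM against 2.49, 2.08, 2.47 and 2.92 in the vehicle (-1.19, SE 0.39, adjusted p = 0.9996), a peak inside MCM2 (1.31, SE 0.46) and one near RRM2 (1.29, SE 0.48). With raloxifene they were 2 peaks of GINS2 (-0.92, SE 0.34, and -0.49, SE 0.20) and one inside E2F2 (-0.58, SE 0.24). With tamoxifen they were a peak 9.3 kb from CDK1 at 2.75, 0.788, 2.86 and 2.55 CPM against 3.78, 4.03, 3.50 and 5.25 (-0.81, SE 0.28), a peak inside GINS2 (-0.71, SE 0.24) and one inside TYMS (-1.28, SE 0.50). None of these 9 differences passed the adjusted threshold.

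The antagonists were also compared with each other in 3 pairs at 100 nM and 1 hour. No member peak was called for fulvestrant over raloxifene, fulvestrant over tamoxifen or raloxifene over tamoxifen by edgeR or by DESeq2. The backgrounds by edgeR were 0.000638%, 0.0% and 0.0%, and DESeq2 called none of all tested peaks. An unadjusted p under 0.05 was found for 18, 22 and 9 peaks (6.29%, 7.69% and 3.15%), beside 5.16%, 5.27% and 3.92% of all tested peaks. For fulvestrant over raloxifene the smallest p belonged to the GINS4 peak, at 2.74, 1.85, 1.47 and 3.14 CPM against 4.03, 4.98, 3.72 and 3.68. These libraries did not overlap, and the log2 difference was -0.91 (95% interval -1.5 to -0.33, adjusted p = 0.9638). A peak near MYBL2, a mitotic gene activator, followed at -0.36 (SE 0.12), and one near POLA1 at 0.82 (SE 0.30). For fulvestrant over tamoxifen the smallest p belonged to a peak inside GINS2, chr16:85679849-85680168, at 7.31, 9.0, 12.1 and 7.85 CPM against 5.36, 5.36, 3.68 and 4.05 (0.97, 95% interval 0.47 to 1.47, adjusted p = 0.9336). A CHEK1 peak (1.91, SE 0.56) and the MCM2 peak (1.44, SE 0.48) came next. For raloxifene over tamoxifen they were a peak near PLK1 (-0.80, SE 0.32), the same GINS2 peak (0.59, SE 0.25) and one near MCM4 (-0.45, SE 0.19). Among the 43 highest peaks the 95% intervals of the 3 pairs lay between -0.66 and 0.59. Missing the threshold does not show that the compounds act alike.

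Other gene lists give the scale of these counts. For 48 further replication and cell cycle genes, 40 peaks were higher and 23 lower of 330 in complete medium, and 3 were higher and none lower with estradiol. The leading ones lay at CDC6, which loads the MCM helicase beside CDT1: at chr17:40322369-40322630 CPM was 89.2 ± 5.1 in complete vehicle, 72.9 ± 7.7 with estradiol and 31.1 ± 6.2 in starved vehicle libraries. For 20 estrogen-induced genes, 126 were higher and 13 lower of 350 in complete medium, and 43 and none with estradiol. For 16 housekeeping genes the counts were 15 and 5 of 140 in complete medium and none with estradiol. For 7 luminal markers they were 26 and 6 of 154, and 6 and none with estradiol. For 8 markers of other cell types, 2 were higher and 10 lower of 74 in complete medium, and none was called with estradiol. Median log2 fold changes in complete medium were 0.129 for the 43 genes, 0.0681 for the further replication genes, 0.512 for the estrogen-induced genes and 0.125 for the housekeeping genes, and with estradiol 0.0114, 0.000333, 0.332 and 0.0221. Differences between the lists were not tested.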

How the data were processed

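Per the submitters' processing notes, the tools were cutadapt 1.8.1 for adapters, Bowtie2 2.4.4 for alignment and SAMtools 1.9, with the build hg38. How peaks were called and counted, duplicates treated and Tn5 cuts shifted was not given in the sources used here. Values are raw counts per peak as deposited by the authors, in 1 peak set for all 24 libraries, and the authors' table does not say whether starts count from 0 or 1. Every column was mapped to a library, and libraries were grouped by title.

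One fit in edgeR 4.0.16 under R 4.3.3 held all 6 groups, with TMM scaling and filterByExpr (minimum count 10, minimum total 15), which kept 156745 peaks. Contrasts used the two-sided quasi-likelihood F-test with Benjamini-Hochberg adjustment over all tested peaks at 0.05. The SE is the log2 fold change over the root of F, an approximation, and 95% intervals follow from it. Fitted fold changes weigh libraries by depth and can differ from ratios of mean CPM. CPM uses TMM-scaled totals. A second fit used counts summed over the peaks of each of 19208 protein-coding genes.

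Gene intervals, starts and promoter sequences came from RefSeq on GRCh38.p14, whose table was matched by symbol (1 listed gene through an older symbol). A peak belongs to a gene when its midpoint is within 20 kb of the gene's interval. Genes with a called peak were all named, with values for the 20 called peaks of smallest p, and for the antagonists the 3 of smallest p. The members and lists were chosen with earlier results of these data known. Alternatives were DESeq2 1.42.0, scaling by RLE, by totals or by loess (span 0.3, 4 iterations), all peaks unfiltered, only the groups compared, a replicate block, the set of replicates as a term, each library left out, no conflicting vehicle libraries and, added after seeing the data, each pair of replicates alone and the libraries outside the vehicle comparison. The fit was tested on simulated counts with the depths of these libraries.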

Additional observations from a re-analysis of the deposited data

Results flagged for a closer look

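In 70 groups of 4 libraries examined with Dixon's test at the 95% level, 6 held a library far from the other 3, where chance flags about 1 in 20. At the FANCD2 peak starting at 10047912, starved vehicle replicate 3 had 6.82 CPM and the others 15.6 to 16.6. At the E2F2 peak starting at 23528230, complete vehicle replicate 2 had 11.7 CPM and the others 13.7 to 14.1. At the MCM4 peak starting at 47941947, complete vehicle replicate 3 had 18.5 CPM and the others 14.6 to 15.1. At the RRM2 peak starting at 10208870, complete vehicle replicate 4 had 1.75 CPM and the others 0.823 to 0.973. At the RFC4 peak starting at 186772802, starved vehicle replicate 3 had 1.2 CPM and the others 4.26 to 4.73. In counts summed over the RRM2 peaks, complete vehicle replicate 1 had 73.0 CPM and the others 85.8 to 88.2. Starved vehicle replicate 3, the second shallowest library, holds 2 of the 6.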

How the results depend on the processing

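Same-numbered libraries shared little: their deviations correlated between -0.128 and 0.126, most of them positive. With a replicate block, member peaks numbered 42 higher and 16 lower between media and 3 higher with estradiol, and genes 10 higher and 2 lower. Over all features that fit called 8.84% of peaks higher and 10.9% lower between media, 1.0% higher with estradiol, and 10.9% of genes higher and 12.2% lower between media. With only replicates 3 and 4, the media comparison had 14 rises and 6 falls (5 and 1 by gene). Estradiol had 1 rise there and fulvestrant over tamoxifen 1 call, with the shallow fulvestrant replicate 4 in that pair. Over all features, that setting called 628 genes higher and 895 lower of 19230 between media. Estradiol had 729 of 160761 peaks higher and 26 lower, and fulvestrant over tamoxifen 268 and 13. With only replicates 1 and 2 the media rises numbered 25, and without the conflicting vehicle libraries 23. In the libraries outside the vehicle comparison 1 gene was lower, and the GINS4 and RFC4 peaks turned to -0.322 and -0.312. The cause of these shifts was not tested. Leaving out each library gave 28 to 39 rises and 12 to 16 falls between media, and 6 to 9 genes higher and 2 lower. Estradiol kept 1 to 3 rises, the 1 being without starved estradiol replicate 2. Over all features these fits called 9130 to 12663 peaks higher and 12247 to 15500 lower between media, of 161815 to 163190. Of 19230 to 19240 genes, 1320 to 1913 were higher and 1563 to 2097 lower, and peaks higher with estradiol numbered 954 to 1210. No call appeared for any antagonist against the vehicle or for the other 2 pairs under any setting run. Of 452 combinations of 23 named differences with a setting, 429 kept the call, 21 lost it and 2 changed direction, and 12 of the 23 kept it throughout. Peaks off promoters were the lower and less precise ones, at a median of 3.38 CPM and a median SE of 0.276 on the log2 scale. Peaks over promoter windows had 28 CPM and 0.117.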
